A study of Mus musculus with 217 samples.

Results

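The nuclear-encoded genes of the mitochondrial respiratory chain were described across single cells of the mouse growth plate. Members were all rows of the deposited expression table whose symbol begins with Nduf, Sdha to Sdhd, Uqcr, Cox4 to Cox8 or Atp5, which gave 90 of the 9739 named genes. Of these, 77 encode subunits of complexes I to V and 13 encode assembly factors or share only the symbol stem. The subunit genes comprised 36 of complex I, 4 of complex II, 8 of complex III, 14 of complex IV and 15 of complex V. None of the 13 protein genes of the mitochondrial genome was analysed here.

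The cells came from the tibial growth plate of C57/BL wild-type mice at postnatal day 7, with no treatment named. All 217 cells carried the same labels and no animal was named, so the whole table counts as a single sample and nothing could be tested between groups. Every SD given is a spread over all profiles of the group named beside it, unless it is named as between repeats. PolyA RNA of each cell had been made into full-length cDNA with the SMARTer kit and into libraries with Nextera XT. Values are given on the log2 scale in which the table was deposited, which has a floor of 0 and had been scaled for depth. Depth per cell is unknown. A gene is called detected in a profile where its deposited value is at least 1.

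Among the columns, 52 formed 23 sets of near-copies (r of at least 0.964 within a set, and at most 0.686 between other columns), and each set was averaged. With 1 mixed column left out, 30 fewer profiles than cells remained. Of these profiles 94.1%, all but 11, had a value of at least 5 for Acan, the gene of the cartilage proteoglycan aggrecan, and are called Acan-high, and the 11 with less are called Acan-low. The split fell in a wide gap, because the highest Acan value under 5 was 2.91 and the lowest above it was 6.67. Of 14 chondrocyte markers, 13 were higher by at least 1 in the Acan-high profiles, with a median difference of 8.99. Acan is among these 13, and its difference of 8.87 follows from the split itself. The defining cartilage collagen gene Col2a1 was an exception, with a mean of 0.49 ± 0.78 in the Acan-high profiles against 0.18 ± 0.59 in the Acan-low profiles (SD). Of 6 osteoblast markers, 5 were lower by at least 1 in the Acan-high profiles, with a median difference of -5.01. The bone gene Ibsp reached at least 5 in 9 of the 11 Acan-low profiles, and the other 2 had Ibsp, Col1a1 and Col1a2 at 0. Both muscle markers in the table were at 0 in all 11. Of 5 macrophage and osteoclast markers, only 2 were at 0 in all 11. Cd68, which belongs to that list, was detected in 1 Acan-low profile, at 8.44, and in 15.3% of the Acan-high profiles. The only endothelial marker in the table reached 4.43 in the Acan-low profiles.

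Respiratory chain complexes I and II take electrons from NADH and succinate, and complexes III and IV pass them by way of ubiquinone and cytochrome c to oxygen. The protons that complexes I, III and IV pump across the inner membrane drive ATP synthesis by complex V. The growth plate is cartilage without blood vessels, and its chondrocytes are known for making much of their ATP by glycolysis. In this tissue Ihh marks cells entering hypertrophy and Col10a1, the gene of collagen X, marks hypertrophic cells.

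Most respiratory chain genes were detected in most Acan-high profiles. The median member was detected in 95.5% of these profiles, against 23.9% for the median of all genes, 47 members were detected in at least 95% of them, and 7 in under 20%. A profile had between 25 and 84 of the 90 members detected, with a median of 75.5. In the Acan-low profiles the number ran from 35 to 74, with a median of 65. The number of all genes detected was also higher in the Acan-high profiles, with a median of 3463.5 (1326 to 4994) against 2757 (2187 to 4118) in the Acan-low profiles.

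After back-transformation the members together made up 2.71% ± 0.495 of the summed values in the Acan-high profiles and 2.54% ± 0.531 in the Acan-low profiles (SD). The shares overlapped, running from 1.54% to 4.47% in Acan-high and from 1.91% to 3.91% in Acan-low profiles. Such a share cannot tell a change in these genes from a change in the RNA of all the others.

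**Figure D1:**
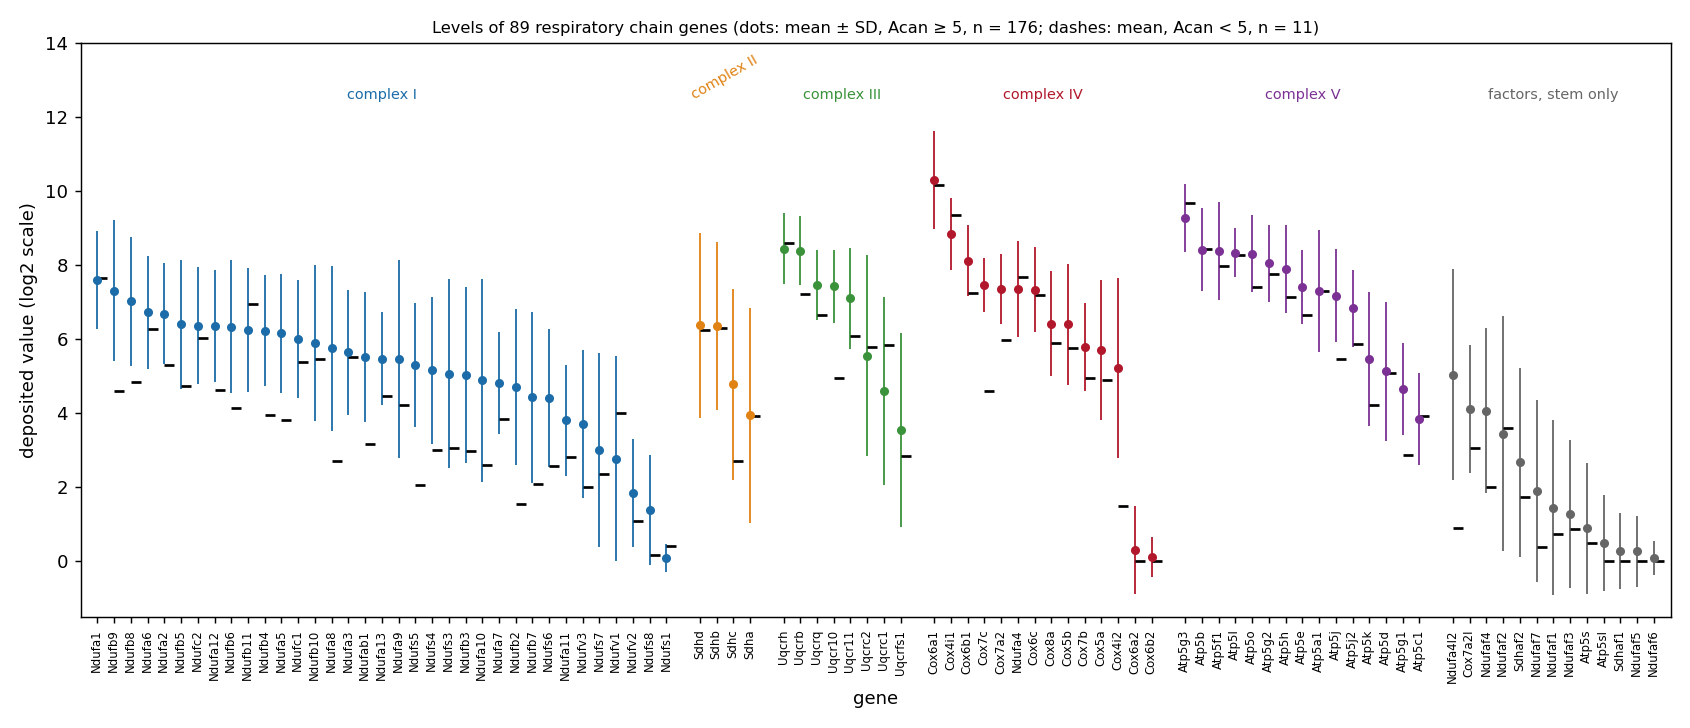
Deposited value (log2 scale) of 89 of the 90 members, grouped by complex and ordered by mean. Dots with bars are the mean ± SD over the Acan-high profiles, and black dashes are the mean over 11 Acan-low profiles; most complex I accessory subunits have their dash below the dot, and Ndufa4l2 and Cox4i2 have it far below.

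The unit per gene is not given in the sources used here, so the order of genes by value describes the table and is not a comparison of transcript numbers. Across 8942 genes the lowest value above 0 had a Spearman rho of -0.208 with transcript length, and members' transcripts were shorter than most (median 955 bases against 3049.5 for all genes).

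In complex I the highest means in the Acan-high profiles were those of Ndufa1, Ndufb9 and Ndufb8, all accessory subunits of the membrane arm. Ndufa1 had a lowest value of 0, a median of 7.87 and a highest value of 10.17. The lowest mean was that of Ndufs1, the large iron-sulfur subunit of the matrix arm, which was detected in 6 Acan-high profiles (3.41%, exact Clopper-Pearson 95% interval 1.26% to 7.27%) and never exceeded 2.67. Intervals of this kind cover counting error only. Other core subunits were also detected less often than most accessory ones. Ndufs8 was detected in 50% of these profiles, Ndufv1, which binds NADH, in 55.7%, Ndufs7 in 61.9% and Ndufs3 in 84.7%. The 29 accessory subunits were detected in 82.4% to 99.4%.

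In complex II, Sdhd and Sdhc anchor the enzyme in the membrane, Sdhb carries iron-sulfur centres and Sdha is the flavoprotein that oxidises succinate. Sdhd had a median of 7.38 and a highest value of 9.37, Sdhb a median of 7.05 and a highest value of 9.83, and Sdhc a median of 5.56 and a highest value of 9.47. Sdha had the lowest mean of the complex, 3.94 ± 2.90 (SD). Each of the 4 genes had a value of 0 in at least 1 profile, and they were detected in 73.9% to 93.8%.

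In complex III the highest means were those of Uqcrh, the hinge protein beside cytochrome c1, Uqcrb and Uqcrq. These 3 genes were detected in every Acan-high profile. Uqcrh ran from 3.46 to 10.49 with a median of 8.63, and Uqcrb from 3.62 to 10.99 with a median of 8.54. The lowest mean was that of Uqcrfs1, the Rieske iron-sulfur protein, at 3.55 ± 2.61 (SD).

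Cox6a1 of complex IV, a small subunit of cytochrome c oxidase, had the highest mean of all 90 members. It ran from 0 to 12.18 with a median of 10.43. Cox4i1 followed with a median of 8.92 and Cox6b1 with a median of 8.26. At the other end stood Cox6b2, the isoform known from testis, which was detected in 9 Acan-high profiles (5.11%, interval 2.36% to 9.49%). Cox6a2, the isoform of heart and skeletal muscle, was detected in 13 (7.39%, interval 3.99% to 12.3%) and reached 6.73. Neither was detected in the 11 Acan-low profiles, which allows shares of up to 28.5%.

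In complex V the highest means were those of Atp5g3, which encodes subunit c of the rotor ring, Atp5b, the catalytic beta subunit, and Atp5f1 of the outer stalk. Atp5g3 ran from 5.05 to 11.31 with a median of 9.37. Its paralogs encode the same mature subunit c and had lower values, with medians of 8.24 for Atp5g2 and 4.92 for Atp5g1. Atp5c1, the central shaft, had the lowest mean of the complex, 3.85 ± 1.25 (SD), but was detected in 95.5% of profiles.

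The 13 genes that are not subunits were detected less often, in a median of 33% of Acan-high profiles. Of the 7 members detected in under 20% of the Acan-high profiles, 4 were not subunits: Ndufaf5, Ndufaf6, Sdhaf1 and Atp5sl. Ndufaf4, which assembles complex I, was the most often detected factor of its family, in 83.5% of profiles with a median of 4.63.

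The SD over profiles moved with the level in a way that depended on how often genes were detected. Over all genes its rho with the mean was 0.793, and over the 90 members it was -0.414. Among genes detected in at least 95% of the Acan-high profiles it was -0.640 over 47 members and -0.526 over 624 genes, so members resembled other genes of like detection in the sign of this relation. In that range the median SD was 1.31 over members and 1.37 over all genes. Atp5l with 8.34 ± 0.67 and Cox7c with 7.47 ± 0.73 varied little (SD), whereas Cox6a1, the highest member, had an SD of 1.33. Of the 90 members 25 had an SD above 2.

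The score of a complex is the mean value of its members in a profile. In the Acan-high profiles the complex I score ran from 1.47 to 6.87 with a median of 5.16, and in the Acan-low profiles from 1.08 to 5.31 with a median of 4.05. The complex IV score ran from 1.86 to 7.34 with a median of 6.25, and in the Acan-low profiles from 4.25 to 6.25 with a median of 5.39. Groups overlapped in every score, but 10 of the 11 Acan-low profiles lay below the median of the others for complex I, for complex IV and for all members.

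Mean scores of the Acan-high profiles were above the Acan-low profiles by 1.33 in complex I (5.08 ± 0.72 in Acan-high against 3.75 ± 1.28 in Acan-low profiles), by 0.82 in complex IV (6.20 ± 0.61 against 5.38 ± 0.60) and by 0.57 in complex III (6.57 ± 0.78 against 6.003 ± 1.08; SD throughout). The difference was 0.57 in complex II (5.37 ± 1.51 against 4.80 ± 1.83) and 0.56 in complex V (7.10 ± 0.61 against 6.54 ± 0.78). Between columns taken as repeats the SD of a score was 0.407 for complex I, 0.188 for II, 0.393 for III, 0.371 for IV and 0.358 for V. The complex I and complex IV differences were larger than the SD over the Acan-high profiles, and the other 3 were not. With Cox4i2 left out of complex IV, a choice made after the values were seen, the difference was 0.60, close to the SD (6.27 ± 0.59 in Acan-high against 5.68 ± 0.62 in Acan-low profiles).

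**Figure D2:**
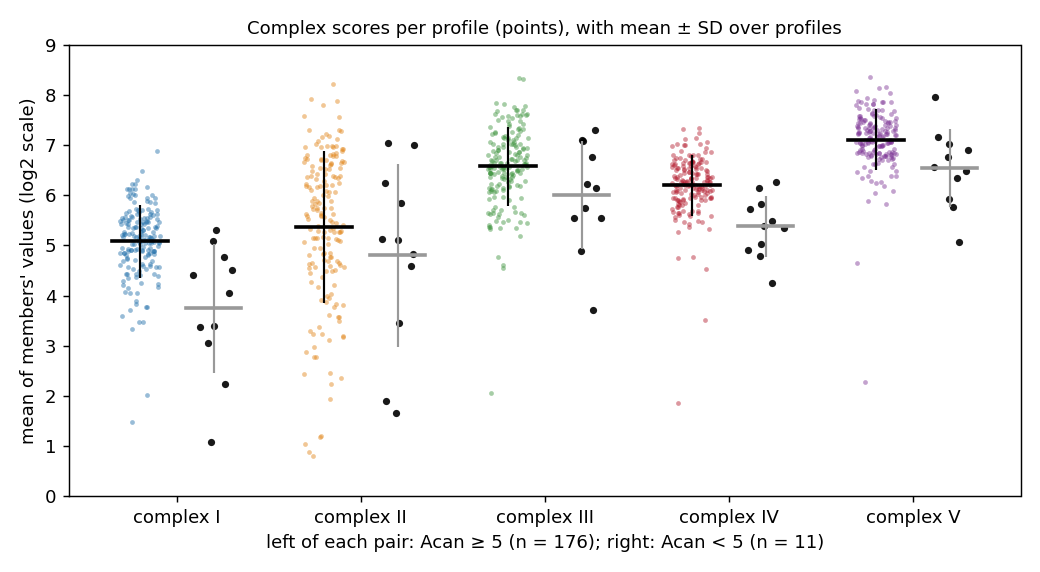
Score of each complex (mean deposited value of its members, log2 scale) in every profile, with the mean ± SD as bars. Within each pair the Acan-high profiles are on the left and the 11 Acan-low profiles on the right; the groups overlap in all 5 complexes and lie furthest apart in complex I.

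One Acan-high profile stood apart from the rest. Its mean over all members was 1.62, whereas the next lowest was 2.94, and it had 25 members and 1326 genes detected. Its Acan value was 10.97. Leaving it out moved the score means by less than their SD, which a single profile among so many could hardly fail to do.

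Of the 90 members, 36 were higher by at least 1 in the Acan-high profiles than in the Acan-low profiles, where 16.8% of all genes were, and 3 were lower by at least 1, where 10.9% of all genes were. The median difference was 0.79 over the members and 0.16 over all genes. The gap was smaller among genes detected more often. Among genes detected in at least 50% of all profiles, a selection made after the values were seen, 34 of 78 members (43.6%) were higher by at least 1, and so were 43.6% of all such genes. The medians were then 0.89 for members and 0.75 for all genes. The share of members lower by at least 1 was 3.85% (3 of 78), against 10.6% of all such genes. With the 2 profiles without Ibsp left out, 31 members were higher and 4 lower by at least 1. The share of all genes was not counted in that setting, so these 2 counts have no background beside them.

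The difference was uneven within complex I. Of its 29 accessory subunits, 20 were higher by at least 1 in the Acan-high profiles and none was lower by that much. Of its 7 core subunits, 2 were higher and 2 lower by that much. Among all genes 16.8% were higher and 10.9% lower by at least 1. Among genes detected in at least 50% of all profiles the shares were 43.6% and 10.6%. The mean score of the accessory subunits was 5.71 ± 0.75 in Acan-high and 4.12 ± 1.35 in Acan-low profiles, a difference of 1.59. That of the core subunits was 2.46 ± 0.995 in Acan-high and 2.21 ± 1.42 in Acan-low profiles, a difference of 0.25 (SD). Whether the accessory and core subunits differ beyond their unlike detection was not tested.

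Ndufs5, Ndufb2 and Ndufa8, accessory subunits of complex I, had the largest differences of any subunits other than Cox4i2. Ndufs5 ran from 0 to 7.92 with a median of 5.59 in the Acan-high profiles, and from 0 to 5.89 with a median of 0 in the Acan-low profiles, a difference of means of 3.25. Ndufb2 had a median of 5.32 in Acan-high and 0 in Acan-low profiles and a difference of 3.15. Ndufa8 had a median of 6.46 in Acan-high and 0 in Acan-low profiles and a difference of 3.04. The groups overlapped for all 3 genes, because each was at 0 in some Acan-high profiles. An exon of Ndufb2 overlaps another gene on the same strand and 1 on the opposite strand, so reads from the shared stretch may be uncertain.

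Among the members lower by at least 1 in the Acan-high profiles were Uqcrc1 and Ndufv1. Uqcrc1, a core protein of complex III, was detected in 82.95% of the Acan-high profiles and in all 11 of the others, with a difference of -1.26. Ndufv1 had a median of 2.43 in Acan-high and 4.90 in Acan-low profiles and a difference of -1.24. Ndufb11 and Cox4i1 came next, with differences of -0.72 and -0.51. All 4 genes had overlapping groups.

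The genes Ndufa4l2 and Cox4i2 set the profiles apart more than any other member. Cox4i2 encodes an alternative form of the cytochrome c oxidase subunit made by Cox4i1, and Ndufa4l2 is a paralog of Ndufa4, a protein once assigned to complex I and now to complex IV. Both are known to be induced by low oxygen in mammalian cells.

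Cox4i2 ran from 0 to 9.001 with a median of 5.98 in the Acan-high profiles, and from 0 to 7.88 with a median of 0 in the Acan-low profiles. It was detected in 87.5% of the Acan-high profiles (interval 81.7% to 92%) against 3 of 11 Acan-low profiles (27.3%, interval 6.02% to 61%), and the means differed by 3.71. Its paralog Cox4i1 was detected in all Acan-high profiles but 1 and in all 11 Acan-low ones, with means of 8.84 ± 0.98 in Acan-high and 9.36 ± 0.68 in Acan-low profiles (SD), a difference of -0.51.

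Ndufa4l2 ran from 0 to 9.93 with a median of 5.88 in the Acan-high profiles, and from 0 to 6.598 with a median of 0 in the Acan-low profiles. It was detected in 81.8% of the Acan-high profiles (interval 75.3% to 87.2%) against 2 of 11 Acan-low profiles (18.2%, interval 2.28% to 51.8%), and the means differed by 4.13. Ndufa4 was at 7.36 ± 1.30 in the Acan-high profiles and 7.68 ± 1.39 in the Acan-low profiles (SD). An exon of Ndufa4l2 overlaps Shmt2 on the opposite strand, and the sources used here do not say whether counting used strand. Shmt2 itself was detected in 21.6% of the Acan-high profiles, with a mean of 0.52.

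Within the Acan-high profiles, Cox4i2 and Ndufa4l2 were detected together in 75.6%, Cox4i2 alone in 21 profiles, Ndufa4l2 alone in 11 and neither in 11. The values of Cox4i2 and Ndufa4l2 had a rho of 0.315, which was 0.314 given the number of genes detected. With their ordinary counterparts the rho was 0.113 for Cox4i2 and Cox4i1 and 0.0106 for Ndufa4l2 and Ndufa4. Other genes known to respond to low oxygen, chosen here after earlier values were seen, were related unevenly. Bnip3, a mitophagy receptor, had a rho of 0.204 with Cox4i2 and 0.0563 with Ndufa4l2, and Pgk1, a glycolytic kinase, had 0.137 with Cox4i2 and 0.257 with Ndufa4l2. The other 3 were near 0 or negative, with a rho of -0.158 with Cox4i2 and -0.0521 with Ndufa4l2 for the hexokinase gene Hk2, 0.0643 and -0.0953 for the glucose transporter gene Slc2a1, and 0.0733 and 0.0266 for the kinase gene Pdk1. These and all correlations below are across cells of 1 sample that share library type and scaling, and are given without p-values.

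**Figure D3:**
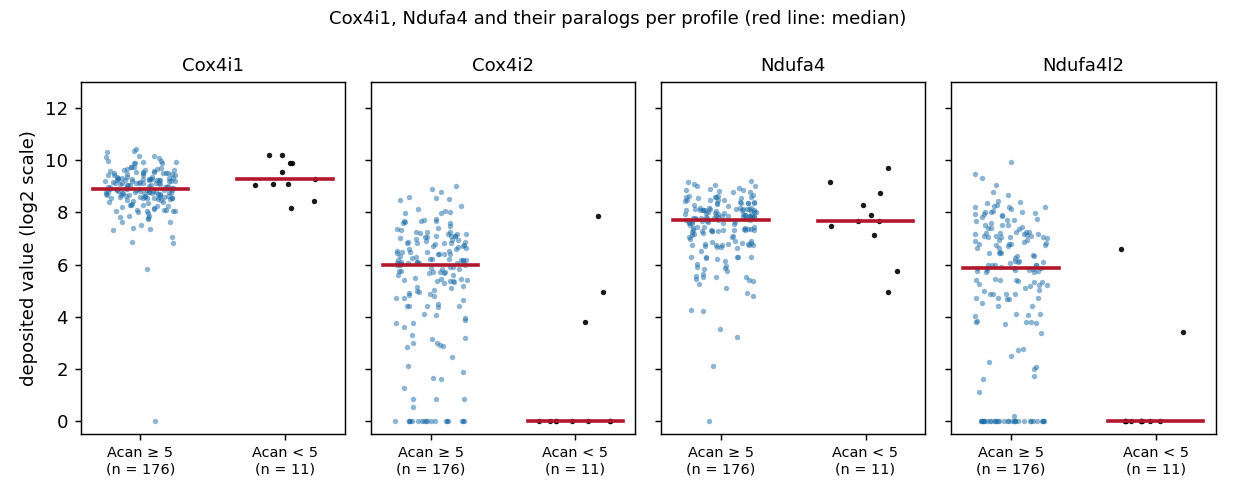
Deposited value (log2 scale) of Cox4i1, Cox4i2, Ndufa4 and Ndufa4l2 in every profile, with the Acan-high profiles on the left of each panel, 11 Acan-low profiles on the right, and the median as a red line. The medians of Cox4i2 (5.98) and Ndufa4l2 (5.88) are those of the Acan-high profiles, and both are 0 in the others, whereas Cox4i1 and Ndufa4 are high in both groups.

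Other genes of energy metabolism were counted from lists in the same way, against 16.8% of all genes higher and 10.9% lower by at least 1, or 43.6% and 10.6% of genes detected in at least 50% of all profiles. Of 15 glycolysis and low-oxygen genes, Ndufa4l2 included, 10 were higher by at least 1 in the Acan-high profiles and none was lower, with a median difference of 2.09. Bnip3 averaged 8.35 ± 2.38 in Acan-high and 1.47 ± 2.53 in Acan-low profiles, and Pgk1 averaged 9.40 ± 1.21 in Acan-high and 6.39 ± 3.31 in Acan-low profiles (SD). Of 12 electron carrier genes 3 were higher and 1 lower, of 20 assembly genes of complexes III and IV 8 were higher and 1 lower, and of 16 citric acid cycle genes 6 were higher and 2 lower. The median differences of these 3 lists were 0.46, 0.65 and 0.56.

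Mitochondrial carriers and porins had 5 of 15 genes higher and 3 lower by at least 1, with a median difference of 0.15. Those lower included Slc25a5, an ADP/ATP carrier that exports the ATP made by complex V, at 9.82 ± 0.91 in the Acan-high profiles against 10.86 ± 0.34 in the Acan-low profiles, and Slc25a3, the phosphate carrier, at 8.12 ± 1.74 in Acan-high against 9.26 ± 1.11 in Acan-low profiles (SD). Of 8 regulators of mitochondrial biogenesis 2 were higher and 2 lower, with a median difference of 0.09. Among them Nrf1, a transcription factor known to act on respiratory chain genes, was detected in 5.11% of the Acan-high profiles.

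The remaining results concern the Acan-high profiles. Col10a1 ran from 0 to 14.62 among them with a median of 7.59 and was detected in 77.8% of them. Ihh ran from 0 to 8.52 with a median of 0 and was detected in 61 profiles (34.7%). Both had more genes detected beside them, with a rho of 0.332 between Col10a1 and the number of genes detected and 0.324 for Ihh. Each relation is given also as a partial rho, with the number of genes detected held fixed. Correlations were computed for the 83 members detected in at least 20% of these profiles, and set beside those of all 5379 genes that met the same limit.

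Respiratory chain genes tended to be higher where Col10a1 was higher. Of the 83 members, 20 (24.1%) had a rho of at least 0.2 with Col10a1, where 11.5% of all genes did, and 2 had a rho of -0.2 or less, where 3.27% of all genes did. The median rho was 0.138 over members and 0.0584 over all genes, and 61 of the 83 were above 0. With genes detected held fixed, 9 members had a partial rho of at least 0.2 (5.21% of all genes) and 2 of -0.2 or less (5.26% of all genes), and the medians were 0.0724 and 0.000477. The count of 20 was 11 with repeat columns kept apart, 43 with upper-quartile scaling and 7 with genes detected regressed out. In these last 2 settings 51.8% and 8.43% of members had a rho of at least 0.2, against 19% and 4.31% of all genes.

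By complex, 8 of 35 genes of complex I, 7 of 15 of complex V, 3 of 12 of complex IV, 2 of 8 of complex III, none of 4 of complex II and none of 9 factors had a rho of at least 0.2. The complex V score had a rho of 0.324 with Col10a1 (partial 0.228) and the complex I score 0.323 (partial 0.143). Values were 0.191 for complex II (partial 0.103), 0.181 for complex IV (partial 0.0638) and 0.101 for complex III (partial -0.0462). The complex I score also followed the number of genes detected most closely, with a rho of 0.671, against 0.379 for complex V.

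Cox6a1 had the highest rho with Col10a1, 0.414 (partial 0.337). In the profiles with Col10a1 of at least 5 (Col10a1-high, 67.05% of the Acan-high profiles) it ran from 0 to 12.18 with a median of 10.53, and in the 58 with less (Col10a1-low) from 0 to 11.91 with a median of 10.01. The groups overlapped nearly in full, and the means differed by 0.61. Uqcrb had a rho of 0.369 (partial 0.349), with a median of 8.64 in Col10a1-high and 8.06 in Col10a1-low profiles. Uqcrb shares a stretch of near-identical transcript sequence with 3 pseudogenes, and whether their reads were counted apart is unknown.

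Atp5j, coupling factor 6 in the outer stalk of ATP synthase, had a rho of 0.353 (partial 0.314). It ran from 4.34 to 9.11 with a median of 7.63 in Col10a1-high profiles, and from 0 to 9.05 with a median of 7.00 in Col10a1-low ones. Atp5j overlaps Gabpa, the gene of a transcription factor subunit, on the opposite strand. Cox6b1 (rho 0.333, partial 0.292) and Uqcr11 (rho 0.313, partial 0.225) completed the 5 highest.

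Ndufaf4 had the lowest rho with Col10a1, -0.270 (partial -0.325). It ran from 0 to 8.08 with a median of 4.47 in Col10a1-high profiles, and from 0 to 8.49 with a median of 5.10 in Col10a1-low ones. Ndufa4l2 followed with -0.228 (partial -0.218), and a median of 5.75 in Col10a1-high and 6.26 in Col10a1-low profiles. Neither is a subunit of a complex. With Pearson's r in place of rho these 2 values were -0.193 and -0.154. Atp5f1, Uqcrh and Ndufa4 came next, with a rho of -0.149, -0.143 and -0.0908. Cox4i2 had a rho of -0.0292 with Col10a1. Outside the members, Cycs, which encodes the cytochrome c that carries electrons to complex IV, had a rho of -0.272 (partial -0.272). Cycs alone among the 12 electron carrier genes had a rho of -0.2 or less, where 3.27% of all genes did. In that list 2 genes had a rho of at least 0.2, where 11.5% of all genes did, and the median rho was 0.0954.

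**Figure D4:**
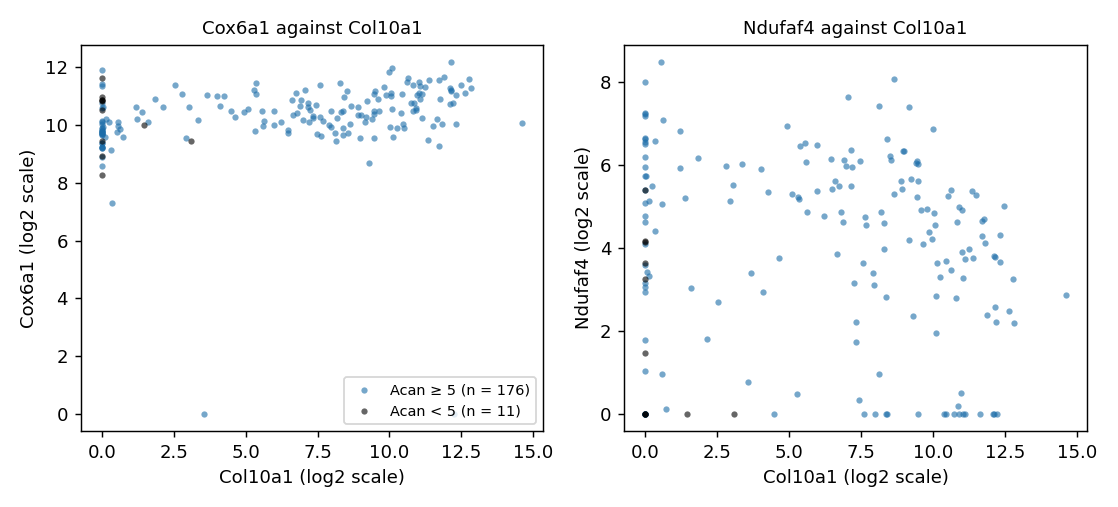
Cox6a1 (left) and Ndufaf4 (right) against Col10a1, all as deposited values on the log2 scale, in the Acan-high profiles (blue) and 11 Acan-low profiles (black). Cox6a1 has a rho of 0.414 and Ndufaf4 a rho of -0.270 with Col10a1 over the blue points, both with wide scatter.

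Promoters of these 2 genes are shown because they had the highest and the lowest relation to Col10a1. The window is the 250 bases before the annotated start, from RefSeq on the build GRCm38.p6, read 5′ to 3′ on the strand of the gene. Capitals mark matches to the NRF1 motif, which is GCGCA, any base and GCGC, the letters bound by the transcription factor NRF1. Cox6a1 lies at chr5:115348959-115349208 on the minus strand and holds 2 matches, and Ndufaf4 lies at chr4:24897833-24898082 on the plus strand and holds 1.
Cox6a1: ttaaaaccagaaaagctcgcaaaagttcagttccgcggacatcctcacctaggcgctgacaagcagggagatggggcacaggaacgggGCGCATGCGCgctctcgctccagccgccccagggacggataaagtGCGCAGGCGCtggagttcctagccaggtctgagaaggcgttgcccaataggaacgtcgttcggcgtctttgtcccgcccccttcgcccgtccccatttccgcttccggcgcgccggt
Ndufaf4: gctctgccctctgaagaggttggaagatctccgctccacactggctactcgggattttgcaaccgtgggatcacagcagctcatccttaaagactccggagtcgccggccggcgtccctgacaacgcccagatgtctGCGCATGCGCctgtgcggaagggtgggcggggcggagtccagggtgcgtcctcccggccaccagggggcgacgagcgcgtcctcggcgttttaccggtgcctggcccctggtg

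In the table of promoters, which runs from 250 bases before to 50 after each start, 72 members had 77 promoters. On either strand, 20 of the 77 (26%) held the NRF1 motif, against 10.9% of 8903 promoters of all measured genes and 4.60% of all 32851 promoters. By gene, the NRF1 motif stood in 6 of 13 promoter-matched genes of complex V, 7 of 32 of complex I, 2 of 3 of complex II, 1 of 5 of complex III, 1 of 10 of complex IV and 2 of 9 factors. CCGGAAGT, the letters of ETS factors such as GABPA, stood in 5 of the 77 promoters (6.49%) against 8.75% of those of measured genes. ACGTG, the core of the element bound by low-oxygen factors and chosen after values were seen, stood in 17 (22.1%) against 26.7%. These motifs can share bases only at their ends, and a match describes the sequence alone. Promoters of Cox4i2, Ndufa4l2, Uqcrb and Cox4i1 were not analysed here.

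Set as groups, Col10a1-high profiles differed little from Col10a1-low ones. Of 90 members 5 were higher by at least 1, where 4.4% of all genes were, and none was lower, where 0.38% of all genes were. The median difference was 0.30 over members and 0.12 over all genes. The complex I score was 5.23 ± 0.64 in Col10a1-high and 4.77 ± 0.77 in Col10a1-low profiles, a difference of 0.46. The complex V score was 7.21 ± 0.50 in Col10a1-high and 6.90 ± 0.76 in Col10a1-low profiles, a difference of 0.31 (SD). Both differences were smaller than the SD over profiles. The largest of any member was that of the complex I accessory subunit Ndufa9, 1.35, with a median of 6.88 in Col10a1-high and 5.53 in Col10a1-low profiles. The number of genes detected had a median of 3576 in Col10a1-high and 3163.5 in Col10a1-low profiles, and with it regressed out no member was higher by at least 1. With the 10% of profiles with fewest genes left out, 2 members were higher and 2 lower by at least 1.

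The values of rho were smaller with Ihh than with Col10a1. Ihh was undetected in most Acan-high profiles, and ties at the floor limit its rho, so the 2 genes are not on like terms. Of 83 members 3 (3.61%) had a rho of at least 0.2 with Ihh, where 6.79% of all genes did, and none had a rho of -0.2 or less, where 1.06% of all genes did. They were Cox6a1 (0.281, partial 0.189), Atp5a1 (0.212, partial 0.135), the catalytic-head alpha subunit of complex V, and Ndufs7 (0.207, partial 0.142). Cox7c and Ndufa2 came next at 0.192 and 0.179. The median was 0.0752 over members and 0.0566 over all genes. With upper-quartile scaling 20 members (24.1%) reached 0.2, against 12.2% of all genes, so the side of the background on which the members fell depended on the scaling.

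With genes detected held fixed no member had a partial rho of at least 0.2 with Ihh, where 1.26% of all genes did, and 1 had a value of -0.2 or less, where 1.54% of all genes did. That member was Atp5g1, with -0.236 (rho -0.188). Its median was 4.66 in the 61 profiles with Ihh detected and 5.02 in the others. Ndufaf4, Uqcrh, Atp5g2 and Ndufab1, the mitochondrial acyl carrier protein, were the next lowest by rho, at -0.132, -0.115, -0.111 and -0.104.

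Between profiles with and without Ihh detected, 3 of 90 members were higher by at least 1, where 2.78% of all genes were, and none was lower, where 0.205% of all genes were. Ndufs7 and Ndufs3, core subunits of complex I, were among them. Ndufs7 had medians of 4.12 with Ihh and 2.40 without and a difference of 1.11. Ndufs3 had medians of 6.21 with Ihh and 5.64 without and a difference of 1.02. Both genes ran from 0 to over 7 in both groups.

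The score of the 7 core subunits was 2.90 ± 0.96 with Ihh detected and 2.23 ± 0.94 without (SD), a difference of 0.67, and its rho with Ihh was 0.312 (partial 0.173). The score of the 29 accessory subunits was 5.93 ± 0.64 with Ihh and 5.597 ± 0.79 without, a difference of 0.33, with a rho of 0.190 (partial -0.0171). The core difference was below the SD over profiles, and the median number of genes detected was 3684 with Ihh and 3306 without. With genes detected regressed out no member differed by 1 or more.

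**Figure D5:**
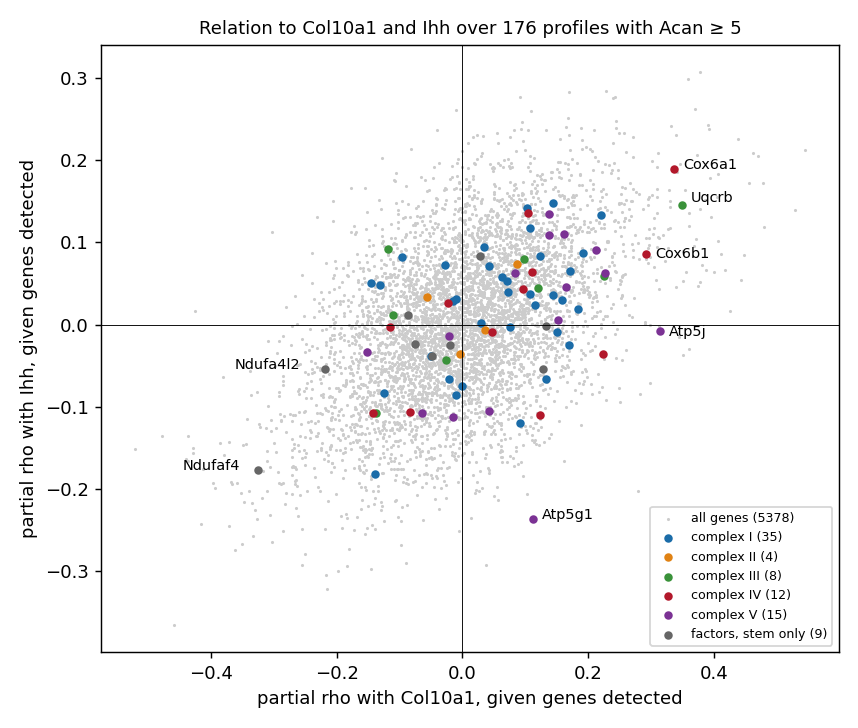
Partial rho with Col10a1 (horizontal axis) and with Ihh (vertical axis), each given the number of genes detected, over the Acan-high profiles. Each large dot is 1 of 83 members, coloured by complex, and small grey dots are all tested genes other than Col10a1 and Ihh; Cox6a1 and Uqcrb lie high on both axes, Ndufaf4 low on both, and most members lie within the cloud of all genes.

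In the 11 Acan-low profiles the same relations could hardly be read. Col10a1 was detected in 2 of them, at 3.10 in the profile with the lowest mean over all members (2.81) and at 1.45 in a profile at the median (4.46). Ihh was detected in 1, at 4.01, where the mean over all members was 5.24, the second highest of the 11. The rho of the mean over all members with Col10a1 was -0.405 (n = 11), a value that rests on those 2 profiles. The mean over all members ran from 2.81 to 5.57, and the 2 profiles without Ibsp had 2.99 and 4.12.

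Respiratory chain genes varied together only weakly from cell to cell. Pairs were formed among subunit genes only, without the factors. The median rho was 0.0991 over pairs in the same complex (800 pairs) and 0.106 over pairs in different complexes (1901 pairs). Over all gene pairs it was 0.0300. A rho of at least 0.2 was reached by 15%, 17.8% and 2.10% of these pairs. The pooled value for pairs in the same complex was mostly that of complex I, which gave 595 of the 800 pairs. Given genes detected, the medians were 0.0684, 0.0791 and 0.00229. By complex the median was 0.144 in complex IV and 0.131 in complex V, both above that of pairs across complexes, and 0.0930 in complex I, 0.0725 in complex II and 0.0424 in complex III.

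The closest pair joined short subunits of different complexes, and pairs within a complex were also among the closest. Within complex IV, Cox6a1 and Cox4i1 had a rho of 0.477 (partial 0.440). Cox6a1 and Uqcr11 had a rho of 0.575 (partial 0.517), Cox6a1 and Uqcr10 0.499 (partial 0.458), and Cox6a1 and Atp5e, the epsilon subunit of complex V, 0.486 (partial 0.455). Among complex scores, I and V had a rho of 0.593, I and IV 0.572 and IV and V 0.510. The complex II score had its highest rho with complex I, 0.358, and its lowest with complex III, 0.161.

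Outside the set, 2673 genes detected in at least 50% of the Acan-high profiles were ranked by partial rho with the mean over all members. Gapdh, a glycolytic enzyme, stood first with 0.495, followed by Mif with 0.493, Serf2 with 0.470, Rpl38 with 0.463 and Cope with 0.455. Nme2, 3110079O15Rik, Sec61b, Rplp2 and Rps26 followed, from 0.430 down to 0.402. Of these 10, Rpl38, Rplp2 and Rps26 encode ribosomal proteins.

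The counting of some members is uncertain. Of 89 members matched to GENCODE transcripts, 27 had a stretch of at least 200 bases at 95% identity or more to a transcript of another gene, and for 19 of them that gene was a pseudogene. Atp5l had 9 such genes and Atp5h 4, the most of any member. Members named above with at least 1 were Ndufs3, Ndufs5, Ndufb9, Ndufb11, Ndufab1, Uqcrb, Cox7c, Atp5c1, Atp5f1, Atp5g1, Atp5l and Sdhaf1. Exons of 22 members overlapped another protein-coding gene, 4 of them on the same strand.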

How the data were processed

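Each cell's polyA RNA was amplified with SMARTer chemistry and made into Nextera XT libraries, per the labels' protocols. TopHat and the build mm10 are named in the submitters' processing notes. Which program counted the reads, on which annotation and strand and in what unit is not given in the sources used here. What the authors deposited were log2 values, with 62.3% of them exactly 0. Base 2 and a pseudocount of 1 were inferred from the values, whose back-transformed totals ran from 394406 to 616257 per cell (median 476331), so the values had been scaled for depth and depth limits cannot be given. An exact 0 can be a failed estimate.

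Columns with r above 0.95 were averaged and 1 mixed column was left out. No doublet caller was run. The members, gene lists, markers and thresholds were chosen with earlier results of these data known. Each of the 217 columns bore the name of 1 cell. Differences of at least 1, and correlations of at least 0.2 among genes detected in at least 20% of Acan-high profiles, were counted for members and for all genes. The partial rho was computed on ranks given the number of genes detected. Genes named are the 3 of highest and 1 of lowest mean per complex, the 5 highest and 5 lowest per comparison, isoform pairs and the 10 most alike other genes. The remaining named genes were picked with their values known. The values of 1 member that this rule would name are not reported here. The planned check against protein length used transcript length, since no protein table was used here. Near-identical transcripts and exon overlaps came from GENCODE release M21 with BLAST+ 2.17.0, and gene positions and promoters from RefSeq. The steps were tested on simulated data. Computation used SciPy 1.17.1, NetworkX 3.6.1, pandas 2.3.3, NumPy 2.4.6 and matplotlib 3.10.9 in Python 3.11.15. Alternatives were repeats kept apart, the mixed column kept in, Acan limits of 3 and 7, profiles of few genes left out, upper-quartile scaling, a pseudocount of 0.1, subunits only, a detection filter, genes detected regressed out and Pearson's r. Leaving out the profile of lowest mean, the 50% detection limit over all profiles, Acan-low profiles with Ibsp only, complex IV without Cox4i2 and the ACGTG motif were added after the data were seen.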

Additional observations from a re-analysis of the deposited data

How the results depend on the processing

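No paired analysis was possible because all cells form 1 sample of 1 group, and no replicate could be left out. Over 15 settings, the main one included, 82.3% of the main values kept their direction and size, 43 moved and 1 reversed. Some of these values could not change. An Acan limit of 3 falls in the gap and gives the same groups. Another pseudocount leaves ranks as they were, and limiting members to subunits leaves the complex scores as they were. The share is therefore not a measure of robustness. The complex IV score was 7.20 in place of 6.20 when limited to genes detected in at least 50% of profiles. The Acan-high minus Acan-low median difference of members over that of all genes, 0.63, was 0.21 without the 10% of profiles with fewest genes, 0.11 and 0.14 with the 50% detection limits in Acan-high and in all profiles, and 0.40 with genes detected regressed out. For Col10a1 the count of members with rho of at least 0.2, 20, was 11 with repeats apart, 43 with upper-quartile scaling and 7 with genes detected regressed out. The count at -0.2 or less, 2, was 1, 1, 0 and 0 with upper-quartile scaling, regression, subunits only and Pearson's r. The median rho above that of all genes, 0.0796, was 0.0256 with repeats apart. In the Col10a1 groups the median member difference over that of all genes, 0.18, was 0.35 with upper-quartile scaling, 0.0716 with the detection limit and 0.0200 after regression. Members higher by at least 1, 5, were 2 without the fewest-gene profiles, 10 with upper-quartile scaling, 14 with a pseudocount of 0.1 and 0 after regression. Members lower, 0, were 1 with repeats apart, 2 without the fewest-gene profiles, 1 with the pseudocount and 2 after regression. For Ihh the count at 0.2 or more, 3, was 1 without the fewest-gene profiles, 20 with upper-quartile scaling and 1 after regression, and the count at -0.2 or less was 2 without the fewest-gene profiles. The median rho above that of all genes, 0.0187, was 0.0282 with repeats apart, 0.0284 with Acan of at least 7, 0.0741 with upper-quartile scaling, 0.0322 with subunits only, 0.0318 with the detection limit, 0.00377 after regression and 0.0428 with Pearson's r. The Ihh median difference over that of all genes, 0.14, was 0.0775 without the fewest-gene profiles, 0.26 with upper-quartile scaling, 0.0723 with the pseudocount, 0.0236 with the detection limit and -0.0229 after regression, which reversed it. Members higher by at least 1 with Ihh, 3, were 7 with the pseudocount and 0 after regression. Member pairs stood above all gene pairs by 0.137 within and 0.150 across complexes with upper-quartile scaling, against 0.0691 and 0.0757. With that scaling the median Acan-high minus Acan-low difference over all genes was 0.17, against 0.16 in the main setting. The causes were not tested. Of the comparisons for single genes and scores, 218 kept their side or size, 11 crossed the limit upward, 7 downward and 2 moved. With detection taken as any value above 0 or as at least 10 before the log, the median member was detected in 96% or 89.2% of Acan-high profiles. The 11 Acan-low profiles limit what can be said of Col10a1 and Ihh there.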
